A study of Acipenser baerii with 14 samples.

Results

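Ryanodine receptors, the channels that release calcium from the sarcoplasmic and endoplasmic reticulum, were represented by 28 contigs among the 23448 genes of the sturgeon transcriptome. The 28 were all contigs whose gene name in the merged Swiss-Prot annotation began with RYR1, RYR2 or RYR3. They held 8 contigs named *ryr1*, 11 named *ryr2* and 9 named *ryr3*. The contigs were chosen by name, and their 2 classes were chosen by their measured level in the general epithelia (EP). A contig was called EP-high where its lower EP library held at least 2 times the mean of the 6 group means of the other tissues, and 21 contigs were EP-high while 7 were not.

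The tissues came from Siberian sturgeon (*Acipenser baerii*) larvae at 10 days post hatching. Ampullary organs (AO, the electroreceptors) and neuromasts (NM, the mechanoreceptors) were taken from the ventral side of the head, either from untreated larvae or at 12 and 24 hours post treatment (hpt) with the antibiotic neomycin, which kills hair cells, at 200 µM for 1 h. EP was taken from untreated larvae only, from the ventral side of the trunk, so the EP libraries differ from the others in body region as well as in tissue. Each of the 7 groups had 2 libraries, made from tissue pooled over several larvae and divided before RNA extraction. The p-values therefore measure the spread between parts of a pool and not between animals. Each organ had 1 untreated pool and 1 treated pool at each time. Neomycin, the time after it and differences between pools, such as in dissection, therefore cannot be told apart.

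In skeletal muscle, RYR1 is opened by the voltage sensor Cav1.1 of the surface membrane, and the released calcium starts contraction. RYR2, which calcium itself opens, is the release channel of the heart and is also found in neurons. In fish RYR3 works beside RYR1 in skeletal muscle. Ryanodine receptors are also known from hair cells of other vertebrates, where they add calcium from internal stores to that entering through the surface membrane.

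The libraries held 7121038 to 10067958 expected counts, and 1 count was worth 0.0952 to 0.145 counts per 1000000 (CPM) after scaling by the trimmed mean of M-values (TMM). All levels are given in TMM-scaled CPM, replicate 1 first, and since contig lengths were not used, a contig with more counts than another is not thereby one with more transcripts. Summed over the skeletal muscle marker list, 81 contigs matched by 28 of 35 symbols, EP held 38800 and 39100 CPM against 287 to 553 in untreated AO and NM, so the trunk EP carried muscle transcripts. No contig of that list was at 0 in both EP libraries. The hair cell list, 37 contigs matched by 13 of 17 symbols, summed to 243 to 511 CPM in the 12 AO and NM libraries and to 135 and 144 CPM in EP. In such bulk tissue, fewer cells of a type and less RNA per cell cannot be told apart.

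The contigs were fragments of an assembly without a genome. They lay in 24 Trinity clusters, and 3 clusters with several contigs held 7 of the 28. All 7 contigs of those clusters were EP-high, although 2 clusters joined a contig named *ryr1* to contigs named *ryr3* and 1 joined *ryr2* to *ryr3*. Clusters c3 and c4 of component DN99607 fell into different classes, with a *ryr1* contig that was EP-high and a *ryr2* contig that was not. For 1 contig, TRINITY_DN99140_c1_g1, the gene name was RYR2 but the protein description was that of RYR1. Contigs of 1 gene can share reads, so they are not independent of each other, and the values of single contigs within a cluster are uncertain where the counting could split reads between them.

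All 8 *ryr1* contigs and all 9 *ryr3* contigs were EP-high, and the *ryr2* contigs were split into 4 that were EP-high and 7 that were not. The contig just inside the rule was TRINITY_DN102706_c1_g1, whose lower EP library was 4.15 times the mean of the other groups. The contig just outside was TRINITY_DN113238_c1_g1, at 0.154 times that mean. No contig lay between those values, and the EP level was used to make the classes, so it is described here and not tested.

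**Figure D1:**
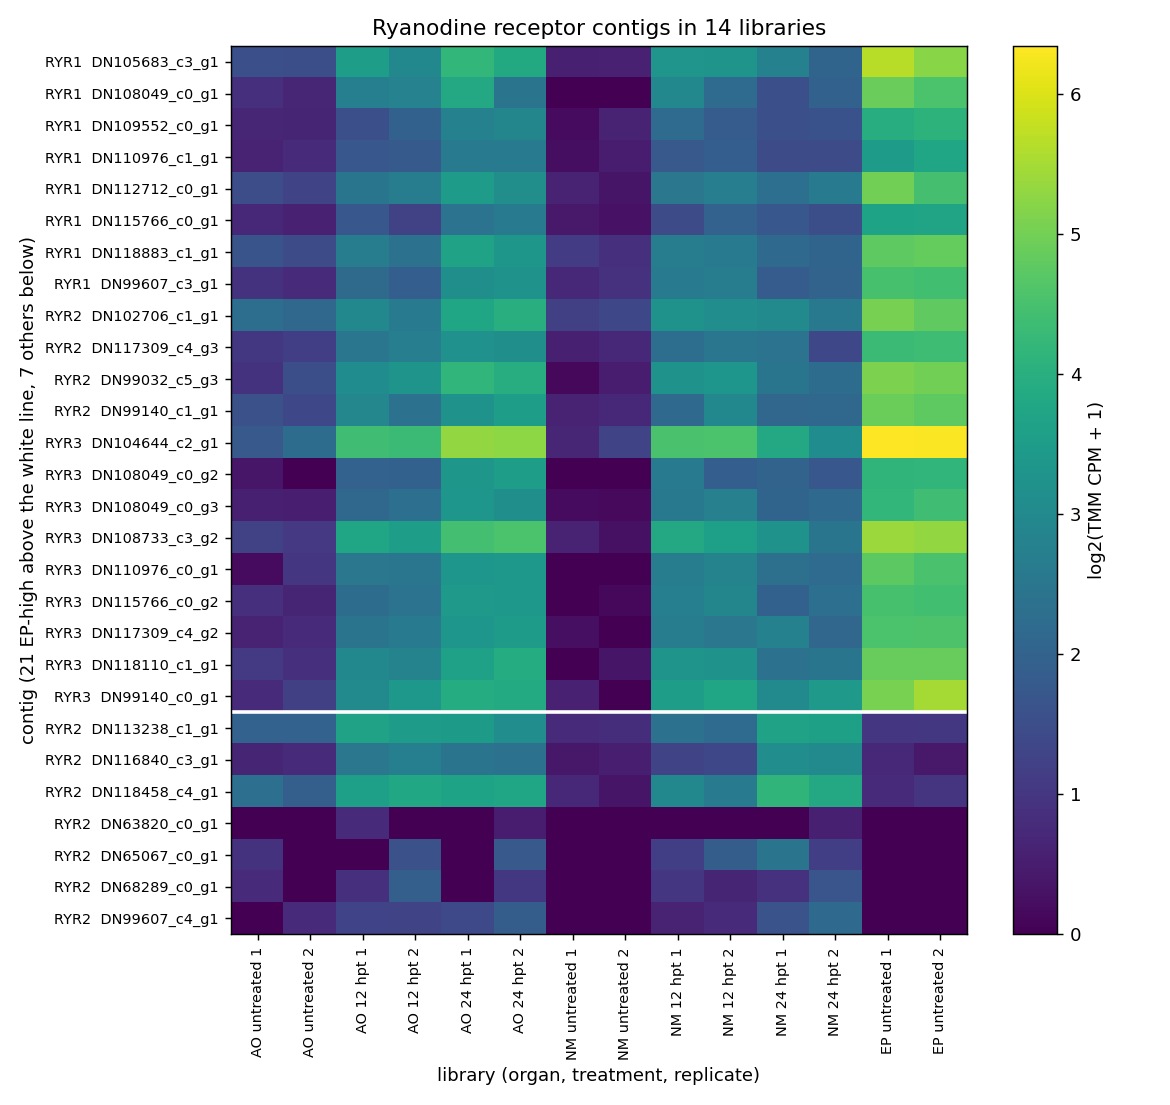
Levels of the 28 ryanodine receptor contigs, as log2(TMM CPM + 1), by library. Rows are contigs and columns the 14 libraries. The 21 EP-high contigs above the white line are highest in the 2 EP columns, and the 7 others, all named RYR2, are at or near 0 there.

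Summed over the 21 EP-high contigs, the level was 593 and 563 CPM in the EP libraries. It was 25.1 and 26 CPM in untreated AO, 127 and 122 in AO at 12 hpt, and 253 and 244 in AO at 24 hpt. In NM it was 7.86 and 9.05 CPM untreated, 144 and 144 at 12 hpt, and 95.2 and 79.5 at 24 hpt. In AO the sum was thus higher at each later time, from 25.6 ± 0.63 (SD, n = 2) through 125 ± 3.5 to 248 ± 6.09 CPM. In NM it was highest at 12 hpt, 17.1 times the untreated mean, and was 10.3 times the untreated mean at 24 hpt. Relative to EP, the AO means came to 4.42%, 21.6% and 43% and the NM means to 1.46%, 25% and 15.1%, in the order untreated, 12 hpt and 24 hpt. No 2 groups overlapped in this sum.

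The 7 other contigs gave a different order of the groups. Their summed level was 1.65 and 1.51 CPM in untreated NM, 15.2 and 14.3 in NM at 12 hpt, and 43.3 and 38.9 in NM at 24 hpt. In AO it was 9.2 and 7.2 CPM untreated, 30.2 and 35.1 at 12 hpt, and 27.9 and 30.8 at 24 hpt. EP held only 2.35 and 2.33 CPM. The sum was highest in NM at 24 hpt, 26 times the untreated NM mean and 17.6 times the EP mean, and the AO libraries at 12 and 24 hpt overlapped.

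**Figure D2:**
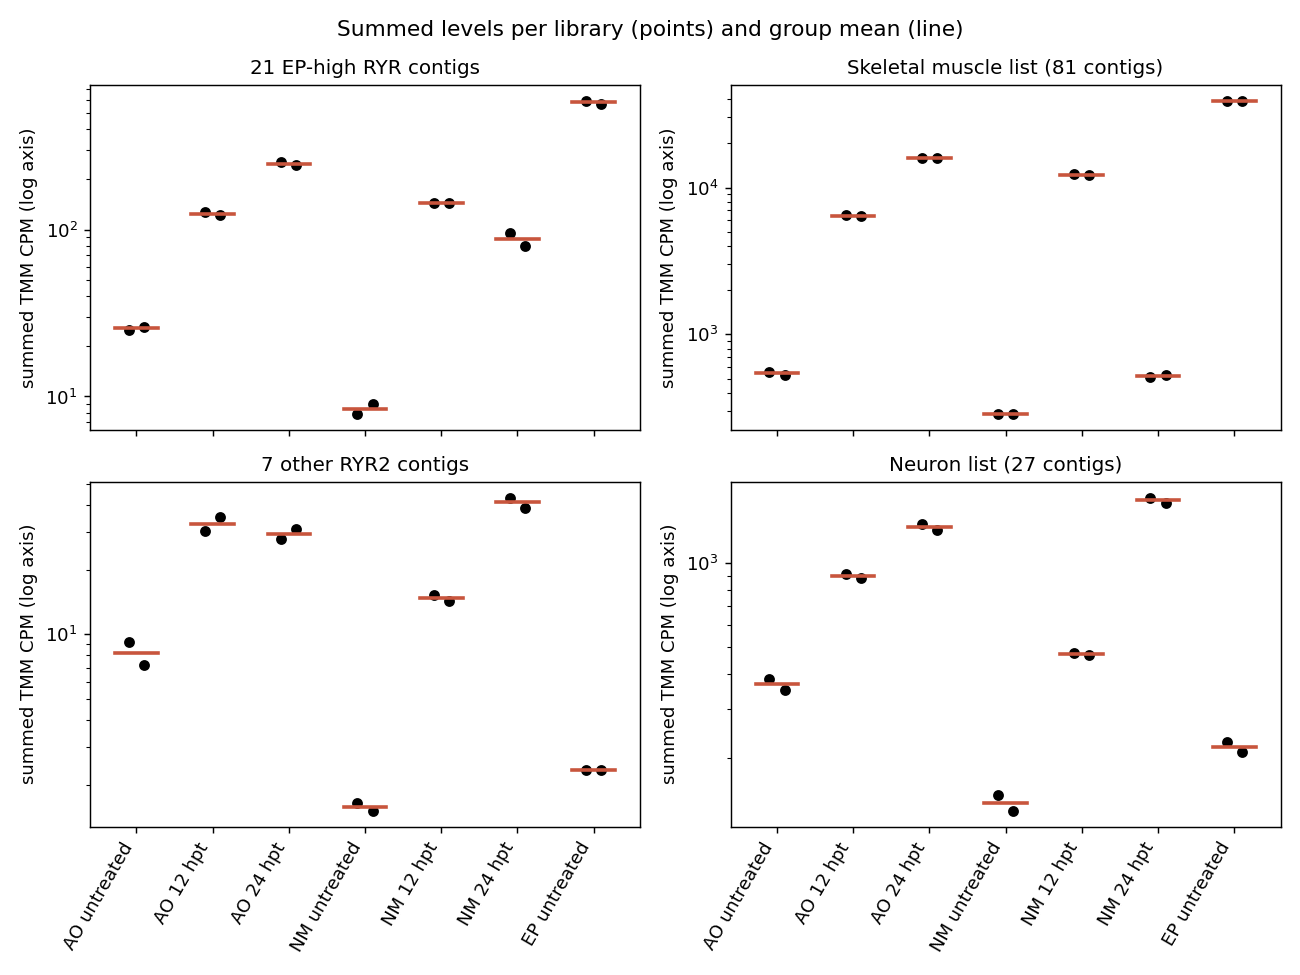
Summed TMM CPM (log axis) of the 21 EP-high contigs, the 7 other contigs, the skeletal muscle list and the neuron list, with a point per library and a line at the group mean. In NM at 24 hpt the EP-high contigs hold 95.2 and 79.5 CPM while the muscle list is at 514 and 528 CPM, against 12300 and 12200 CPM at 12 hpt.

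Over the 14 libraries, the 210 pairs among EP-high contigs had Pearson correlations of log2(CPM + 1) between 0.91 and 0.996, with a median of 0.966. The 21 pairs among the others had a median of 0.653, with 4 of the contigs near the counting limit, and the 147 pairs across classes a median of 0.103. These values describe contigs that share libraries and, within the EP-high class, the measure that chose them. The mean level was highest in EP, next in AO at 24 hpt and lowest in untreated NM for each of the 21 EP-high contigs, and NM at 12 hpt came after AO at 24 hpt for 18 of them. Of the 7 others, 5 were highest in NM at 24 hpt and 2 in AO at 12 hpt.

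Among the *ryr1* contigs, TRINITY_DN105683_c3_g1 had the most counts, with 50 and 36.3 CPM in EP, 1.92 and 1.89 in untreated AO, 10.7 and 6.85 in AO at 12 hpt, 17.5 and 13.5 in AO at 24 hpt, 0.47 and 0.496 in untreated NM, 8.91 and 8.75 in NM at 12 hpt and 5.87 and 3.11 in NM at 24 hpt. TRINITY_DN112712_c0_g1 had 30.8 and 21.3 CPM in EP, 1.81 and 1.46 in untreated AO, 4.5 and 5.39 in AO at 12 hpt, 10.2 and 7.83 in AO at 24 hpt, 0.537 and 0.276 in untreated NM, 4.7 and 5.58 in NM at 12 hpt and 3.96 and 5.06 in NM at 24 hpt. In both contigs every neomycin-treated library lay above all untreated AO and NM libraries and below both EP libraries.

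TRINITY_DN118883_c1_g1 had 26.4 and 27.5 CPM in EP, 2.11 and 1.77 in untreated AO, 5.43 and 4.28 in AO at 12 hpt, 11.6 and 9.32 in AO at 24 hpt, 1.14 and 0.795 in untreated NM, 5.42 and 5.15 in NM at 12 hpt and 3.48 and 3.09 in NM at 24 hpt. TRINITY_DN99607_c3_g1 had 21.6 and 20.5 CPM in EP, 0.903 and 0.723 in untreated AO, 3.54 and 2.72 in AO at 12 hpt, 7.95 and 8.44 in AO at 24 hpt, 0.638 and 0.871 in untreated NM, 5.16 and 5.3 in NM at 12 hpt and 2.62 and 3.04 in NM at 24 hpt. The untreated AO and NM libraries of TRINITY_DN99607_c3_g1 overlapped, unlike those of TRINITY_DN118883_c1_g1.

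TRINITY_DN108049_c0_g1 had 28.6 and 22.5 CPM in EP, 0.799 and 0.61 in untreated AO, 5.64 and 6.02 in AO at 12 hpt, 13.3 and 4.47 in AO at 24 hpt, 0 and 0 in untreated NM, 6.75 and 3.66 in NM at 12 hpt and 1.94 and 2.92 in NM at 24 hpt. The AO libraries at 12 and 24 hpt overlapped for this contig, and replicate 1 at 24 hpt was far above replicate 2. TRINITY_DN109552_c0_g1 had 14.6 and 16.2 CPM in EP, 0.593 and 0.582 in untreated AO, 1.93 and 2.94 in AO at 12 hpt, 5.9 and 6.53 in AO at 24 hpt, 0.146 and 0.529 in untreated NM, 3.67 and 2.61 in NM at 12 hpt and 1.95 and 2.05 in NM at 24 hpt. TRINITY_DN110976_c1_g1 had 10.4 and 12.5 CPM in EP, 0.555 and 0.676 in untreated AO, 2.32 and 2.49 in AO at 12 hpt, 5.02 and 5.25 in AO at 24 hpt, 0.179 and 0.42 in untreated NM, 2.44 and 2.7 in NM at 12 hpt and 1.73 and 1.71 in NM at 24 hpt. TRINITY_DN115766_c0_g1 had 11.9 and 12 CPM in EP, 0.63 and 0.497 in untreated AO, 2.3 and 1.37 in AO at 12 hpt, 4.31 and 5.19 in AO at 24 hpt, 0.358 and 0.242 in untreated NM, 1.79 and 2.96 in NM at 12 hpt and 2.29 and 1.88 in NM at 24 hpt. In these 3 *ryr1* contigs with fewer counts EP was again highest and AO at 24 hpt next, and for TRINITY_DN115766_c0_g1 the NM libraries at 12 and 24 hpt overlapped.

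Among the *ryr3* contigs, TRINITY_DN104644_c2_g1 had the most counts, with 80.2 and 78.3 CPM in EP, 2.4 and 3.7 in untreated AO, 20.2 and 19.1 in AO at 12 hpt, 38.6 and 37.7 in AO at 24 hpt, 0.604 and 1.46 in untreated NM, 21.9 and 22.2 in NM at 12 hpt and 13.1 and 7.42 in NM at 24 hpt. Its NM libraries at 24 hpt lay below those at 12 hpt, with replicate 1 above replicate 2. TRINITY_DN108733_c3_g2 had 40.7 and 38.7 CPM in EP, 1.39 and 1.08 in untreated AO, 12.2 and 10.7 in AO at 12 hpt, 20.7 and 22.3 in AO at 24 hpt, 0.515 and 0.209 in untreated NM, 13.3 and 11 in NM at 12 hpt and 8.35 and 4.48 in NM at 24 hpt. The same was seen in this contig, where replicate 1 at 24 hpt in NM was again the higher.

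TRINITY_DN99140_c0_g1 had 32.3 and 43.6 CPM in EP, 0.724 and 1.32 in untreated AO, 7.03 and 9.44 in AO at 12 hpt, 14.3 and 13.8 in AO at 24 hpt, 0.503 and 0 in untreated NM, 10.7 and 12.4 in NM at 12 hpt and 7.2 and 9.86 in NM at 24 hpt. TRINITY_DN118110_c1_g1 had 28.3 and 28.2 CPM in EP, 1.12 and 0.834 in untreated AO, 6.78 and 6.14 in AO at 12 hpt, 11.4 and 14.1 in AO at 24 hpt, 0 and 0.276 in untreated NM, 8.71 and 8.42 in NM at 12 hpt and 4.18 and 4.54 in NM at 24 hpt. In TRINITY_DN99140_c0_g1 replicate 2 was the higher NM library at 24 hpt, so the replicates did not differ in 1 direction over contigs.

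TRINITY_DN117309_c4_g2 had 22.5 and 22.7 CPM in EP, 0.545 and 0.704 in untreated AO, 4.39 and 5.18 in AO at 12 hpt, 9.06 and 10.3 in AO at 24 hpt, 0.191 and 0 in untreated NM, 5.46 and 4.75 in NM at 12 hpt and 5.95 and 3.27 in NM at 24 hpt. TRINITY_DN110976_c0_g1 had 25.6 and 22.1 CPM in EP, 0.141 and 1.01 in untreated AO, 4.69 and 4.62 in AO at 12 hpt, 9.01 and 9.35 in AO at 24 hpt, 0 and 0 in untreated NM, 5.32 and 6.09 in NM at 12 hpt and 4.08 and 3.65 in NM at 24 hpt. The former overlapped between NM at 12 and 24 hpt, and the latter was at 0 in both untreated NM libraries.

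TRINITY_DN115766_c0_g2 had 21.4 and 20.3 CPM in EP, 0.836 and 0.572 in untreated AO, 3.74 and 4.34 in AO at 12 hpt, 9.63 and 9.47 in AO at 24 hpt, 0 and 0.0997 in untreated NM, 5.66 and 6.46 in NM at 12 hpt and 2.93 and 4 in NM at 24 hpt. TRINITY_DN108049_c0_g3 had 17.4 and 20 CPM in EP, 0.47 and 0.459 in untreated AO, 3.36 and 4 in AO at 12 hpt, 9.15 and 7.95 in AO at 24 hpt, 0.135 and 0.111 in untreated NM, 4.92 and 5.78 in NM at 12 hpt and 3.12 and 3.51 in NM at 24 hpt. TRINITY_DN108049_c0_g2 had 16.8 and 17 CPM in EP, 0.31 and 0 in untreated AO, 2.99 and 2.95 in AO at 12 hpt, 9.22 and 10.5 in AO at 24 hpt, 0 and 0 in untreated NM, 5.16 and 2.71 in NM at 12 hpt and 3.06 and 2.31 in NM at 24 hpt. These 3 contigs were near the level of 1 count in untreated NM, and all were well above it in every treated library.

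In the 4 EP-high *ryr2* contigs EP was again the highest group and AO at 24 hpt the next. TRINITY_DN99032_c5_g3 had 33.1 and 30.9 CPM in EP, 0.913 and 1.89 in untreated AO, 7.48 and 8.7 in AO at 12 hpt, 17 and 14.4 in AO at 24 hpt, 0.101 and 0.42 in untreated NM, 8.48 and 9 in NM at 12 hpt and 4.57 and 3.72 in NM at 24 hpt. TRINITY_DN102706_c1_g1 had 31.9 and 26.8 CPM in EP, 3.91 and 3.33 in untreated AO, 6.83 and 5.24 in AO at 12 hpt, 12.2 and 15.1 in AO at 24 hpt, 1.31 and 1.58 in untreated NM, 8.5 and 7.58 in NM at 12 hpt and 7.17 and 4.87 in NM at 24 hpt. TRINITY_DN102706_c1_g1 was the EP-high contig with the highest untreated AO level relative to EP, 12.3%, where the median of the 21 contigs was 3.85%. TRINITY_DN99140_c1_g1, whose protein was described as RYR1, had 29.1 and 26.2 CPM in EP, 2 and 1.59 in untreated AO, 6.6 and 4.2 in AO at 12 hpt, 8.59 and 10.7 in AO at 24 hpt, 0.559 and 0.618 in untreated NM, 3.49 and 6.73 in NM at 12 hpt and 3.28 and 3.42 in NM at 24 hpt. TRINITY_DN117309_c4_g3 had 18.9 and 19.6 CPM in EP, 1.03 and 1.28 in untreated AO, 4.63 and 5.53 in AO at 12 hpt, 8.17 and 7.9 in AO at 24 hpt, 0.481 and 0.651 in untreated NM, 3.89 and 4.65 in NM at 12 hpt and 4.31 and 1.59 in NM at 24 hpt. The NM libraries at 12 and 24 hpt overlapped in the latter contig, where replicate 1 was at a higher level than replicate 2 at 24 hpt.

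Most contigs were at higher levels in the neomycin-treated AO pools than in the untreated AO pool. At 12 hpt, 20 of 21 EP-high contigs and 3 of the 6 other tested contigs rose against untreated AO, where 9.84% of the 21978 genes tested rose and 2.21% fell. A gene was called by edgeR's quasi-likelihood test where its log2 fold change exceeded 1 in size at a Benjamini-Hochberg adjusted p under 0.01. The contig TRINITY_DN63820_c0_g1, with 14.53 counts in all libraries together, was too low to be tested, and no contig fell. The median log2 fold change was 2.45 over the EP-high contigs, 1.94 over the others and 0.04 over all genes. TRINITY_DN102706_c1_g1 was the EP-high contig that did not pass, at a log2 fold change of 0.74 (SE 0.236, adjusted p = 0.032 by edgeR's quasi-likelihood test). SE here and below is the size of the log2 fold change divided by the square root of the test's F statistic. It is not a separately fitted standard error, and the p-value cannot always be worked out from it.

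At 24 hpt all 21 EP-high contigs and 3 others rose in AO, where 12.6% of genes rose and 3.47% fell. The median log2 fold change was 3.46 over the EP-high contigs and 1.69 over the others, beside -0.01 over all genes. The contig with the most counts, TRINITY_DN104644_c2_g1, rose by a log2 fold change of 2.69 (SE 0.278) at 12 hpt and of 3.65 (SE 0.266) at 24 hpt. Both times were set against the same untreated libraries, so these comparisons are not independent of each other.

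From 12 to 24 hpt in AO, 8 contigs rose, all EP-high, where 1.64% of genes rose and 1.16% fell. They were 4 *ryr1*, 3 *ryr3* and 1 *ryr2* contigs, with log2 fold changes between 1.09 and 1.72, and the clearest was TRINITY_DN99607_c3_g1 at 1.37 (SE 0.15, adjusted p = 0.00026 by edgeR's quasi-likelihood test). The median was 0.99 over the EP-high contigs, just under the fold required, and -0.11 over the others. The count was 2 without either AO library of 12 hpt, 3 without either of 24 hpt and 5 without any 1 library of NM at 24 hpt or of EP, and no contig was called in a fit of these 2 groups alone.

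In NM at 12 hpt, all 21 EP-high contigs and 3 others rose against untreated NM, where 11.1% of genes rose and 1.32% fell. The median log2 fold change was 4.39 over the EP-high contigs, beside 0.06 over all genes. Over the 6 others it was 4.52, or 2.24 with the 3 of them that were at 0 in both untreated NM libraries put at the floor of 3 counts. Leaving aside 3 EP-high contigs that were at 0 in both untreated NM libraries, the EP-high fold changes ran from 2.48 to 6.33. Those 3 were TRINITY_DN108049_c0_g1, TRINITY_DN108049_c0_g2 and TRINITY_DN110976_c0_g1, which at 12 hpt were at least 28.2-fold, 21.3-fold and 30.9-fold higher than the 0.185 CPM that 3 counts over the untreated group allow.

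At 24 hpt in NM, all 21 EP-high contigs and 4 others rose against the same untreated libraries, where 16.1% of genes rose and 5.01% fell. The median was 3.36 over the EP-high contigs, beside -0.03 over all genes. Over the 6 others it was 5.81, or 3.93 with the same 3 contigs at the floor. The 3 EP-high contigs at 0 in untreated NM were at least 13.2-fold, 14.5-fold and 20.9-fold higher at 24 hpt, in the order given above. The median of the EP-high contigs was 3.36 also with these at their bounds.

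**Figure D3:**
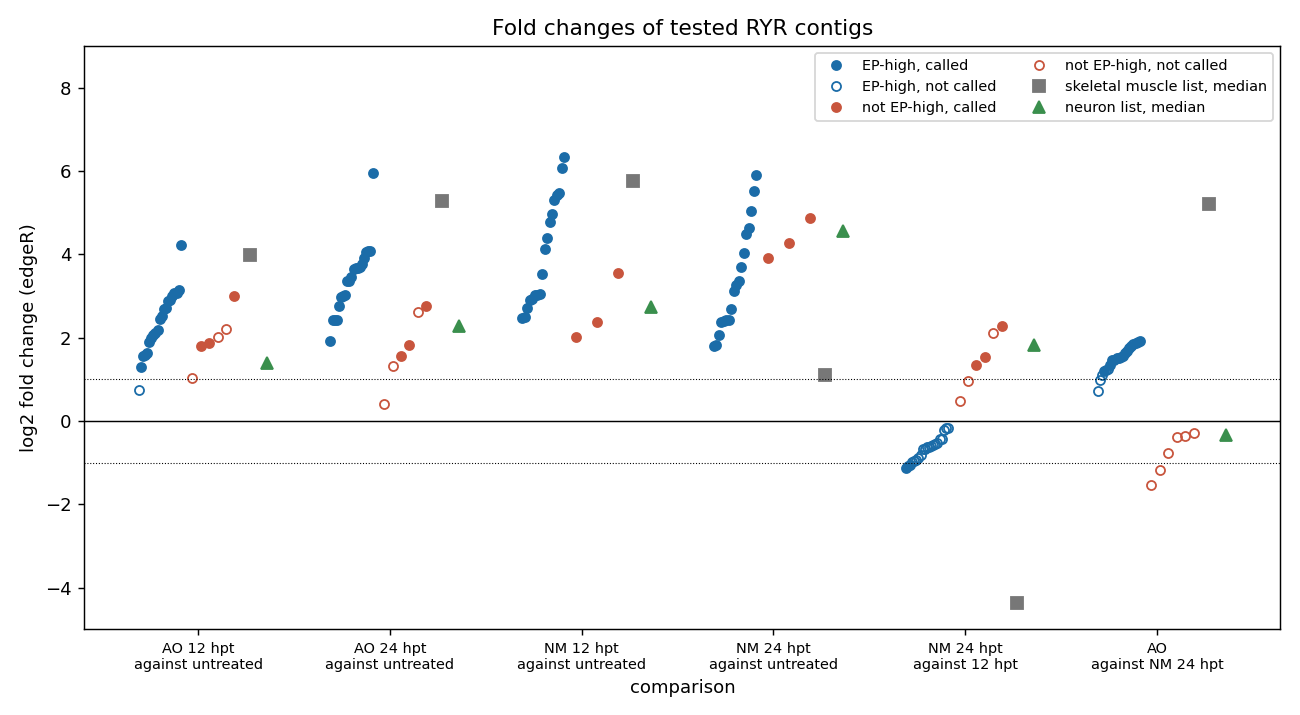
Log2 fold changes of the tested contigs in 6 comparisons, with filled points for contigs that were called and open points for those that were not, beside the medians of the skeletal muscle and neuron lists. Dotted lines mark the fold required, and 6 contigs at 0 in untreated NM are left out of the NM comparisons with untreated. From 12 to 24 hpt in NM the EP-high contigs lie between -1.12 and 0 and the muscle list at -4.36.

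In NM from 12 to 24 hpt few contigs were called, and the values of the classes differed in sign. Of the 27 tested contigs 3 rose, none of them EP-high, where 9.67% of genes rose. Another 2 fell, both EP-high, where 5.59% of genes fell. Taken over all 27 contigs, both counts were near these shares. The contigs that rose were TRINITY_DN113238_c1_g1 at a log2 fold change of 1.54 (SE 0.155), TRINITY_DN116840_c3_g1 at 2.27 (SE 0.218) and TRINITY_DN118458_c4_g1 at 1.34 (SE 0.211). The 2 that fell were TRINITY_DN104644_c2_g1 at -1.12 (SE 0.238, adjusted p = 0.0039 by edgeR's quasi-likelihood test) and TRINITY_DN99032_c5_g3 at -1.07 (SE 0.225, adjusted p = 0.0035 by the same test). All 21 EP-high contigs had a negative value, with a median of -0.63, and all 6 others a positive one, with a median of 1.44. Of the 21, 9 had an unadjusted p under 0.05 by edgeR's quasi-likelihood test. Contigs of a class come from the same libraries and can share reads. A count of signs, here or below, is therefore not a count of separate observations. Without replicate 1 or replicate 2 of NM at 12 hpt, or without replicate 2 of NM at 24 hpt, the 2 EP-high contigs were not called and the 3 others were.

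Like the EP-high sum, the summed skeletal muscle markers in NM were highest at 12 hpt, with a larger fall to 24 hpt. Of 77 tested muscle contigs, 63 rose in NM at 12 hpt against untreated, and 58 fell from 12 to 24 hpt, when their median log2 fold change was -4.36. Over all genes 11.1% rose and 5.59% fell in these comparisons. The muscle list summed to 287 and 288 CPM in untreated NM, 12300 and 12200 at 12 hpt and 514 and 528 at 24 hpt, with 22, 3 and 15 of its 81 contigs at 0 in both libraries. *mylpf* (TRINITY_DN115890_c1_g3), a myosin light chain of fast muscle, had 14.4 and 13 CPM in untreated NM, 4640 and 4600 in NM at 12 hpt, 71.4 and 71.3 in NM at 24 hpt, 62.4 and 71.4 in untreated AO, 1740 and 1770 in AO at 12 hpt, 4060 and 3940 in AO at 24 hpt and 10100 and 10100 in EP. *acta1* (TRINITY_DN92795_c2_g3), skeletal muscle actin, had 10.7 and 12.7 CPM in untreated NM, 1090 and 1170 in NM at 12 hpt, 46.5 and 55.3 in NM at 24 hpt, 50.3 and 55.4 in untreated AO, 824 and 853 in AO at 12 hpt, 1840 and 1910 in AO at 24 hpt and 5160 and 5620 in EP. Creatine kinase *ckm* (TRINITY_DN107292_c2_g1) had 10.7 and 14 CPM in untreated NM, 1310 and 1320 in NM at 12 hpt, 45.8 and 50.7 in NM at 24 hpt, 51.2 and 58.4 in untreated AO, 726 and 714 in AO at 12 hpt, 1720 and 1670 in AO at 24 hpt and 4270 and 4360 in EP. All 3 fell from 12 to 24 hpt and were still called higher than in untreated NM, by log2 fold changes of 2.38, 2.12 and 1.96. Of the 77 muscle contigs 20 were called higher in NM at 24 hpt than in untreated NM, where 16.1% of all genes were. The EP-high ryanodine receptor sum at that time was above every untreated AO and NM library.

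Set against the muscle list, the EP-high sum was 15.3 and 14.4 CPM per 1000 CPM of muscle markers in EP, 19.6 and 19.1 in AO at 12 hpt, 15.9 and 15.4 in AO at 24 hpt, and 11.7 and 11.8 in NM at 12 hpt. Untreated AO had 45.4 and 48.9 and untreated NM 27.4 and 31.4 on this scale. NM at 24 hpt had 185 and 150, above every other library. This ratio was not tested, and the part of muscle cells in the level of the EP-high contigs was not tested. In AO the muscle list rose alongside, from 553 and 532 CPM through 6490 and 6390 to 15900 and 15800, with 59 and 67 of 77 contigs called higher at 12 and 24 hpt against untreated. Over all genes 9.84% and 12.6% were called higher.

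**Figure D4:**
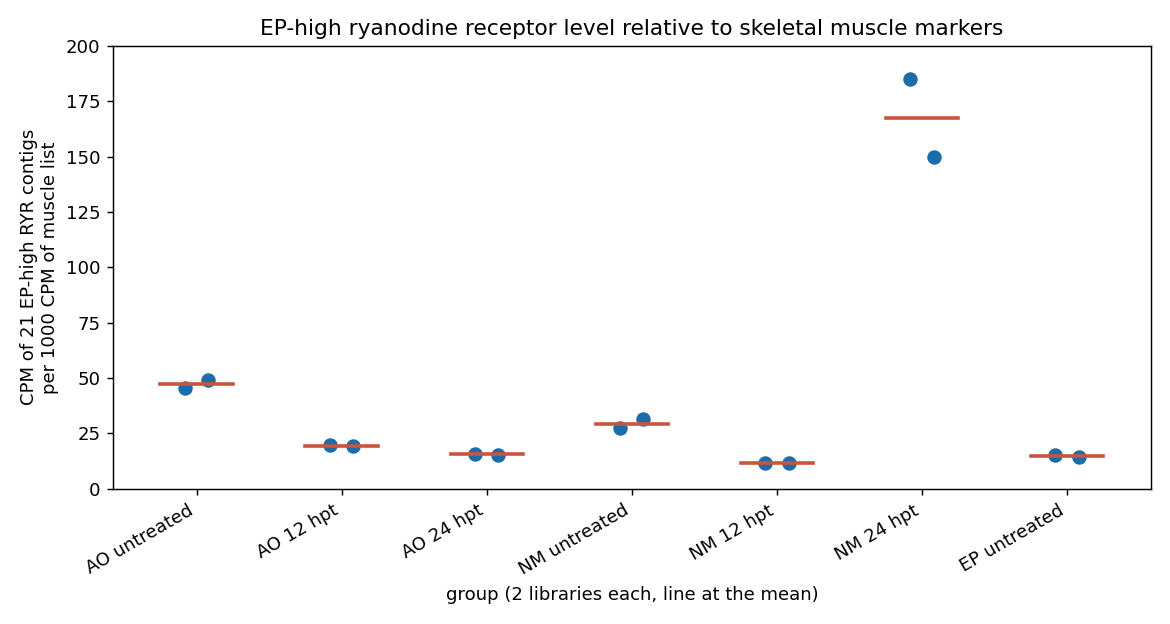
Summed CPM of the 21 EP-high contigs per 1000 summed CPM of the skeletal muscle list, with a point per library and a line at the group mean. The NM libraries at 24 hpt are at 185 and 150, and the other 12 libraries lie between 11.7 and 48.9.

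Of the 7 contigs that were not EP-high, 3 carried most counts. TRINITY_DN113238_c1_g1 had 0.681 and 0.773 CPM in untreated NM, 4.19 and 3.63 in NM at 12 hpt, 11.6 and 11.1 in NM at 24 hpt, 2.96 and 2.97 in untreated AO, 11.6 and 10.4 in AO at 12 hpt, 9.92 and 7.62 in AO at 24 hpt and 0.996 and 1.04 in EP. Both EP libraries were close to the untreated NM level, and the NM libraries at 24 hpt overlapped with AO at 12 hpt. TRINITY_DN118458_c4_g1 had 0.638 and 0.287 CPM in untreated NM, 6.76 and 5.09 in NM at 12 hpt, 16.8 and 13.1 in NM at 24 hpt, 4.02 and 2.79 in untreated AO, 10.9 and 12.8 in AO at 12 hpt, 11.8 and 12.5 in AO at 24 hpt and 0.697 and 0.936 in EP. TRINITY_DN116840_c3_g1 had 0.335 and 0.453 CPM in untreated NM, 1.45 and 1.59 in NM at 12 hpt, 7.57 and 7.23 in NM at 24 hpt, 0.583 and 0.732 in untreated AO, 4.72 and 5.68 in AO at 12 hpt, 4.47 and 4.17 in AO at 24 hpt and 0.66 and 0.352 in EP. In both of these contigs NM at 24 hpt was above every other group, and EP was among the lowest.

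The other 4 were sparse. TRINITY_DN99607_c4_g1 had 0 and 0 CPM in untreated NM, 0.544 and 0.726 in NM at 12 hpt, 2.06 and 3.46 in NM at 24 hpt, 0 and 0.704 in untreated AO, 1.41 and 1.46 in AO at 12 hpt, 1.65 and 2.67 in AO at 24 hpt and 0 and 0 in EP. It rose in NM at 24 hpt (adjusted p = 0.0029 by edgeR's quasi-likelihood test), where it was at least 15-fold higher than the 3-count floor of the untreated group. TRINITY_DN65067_c0_g1, TRINITY_DN68289_c0_g1 and TRINITY_DN63820_c0_g1 were called in no comparison, were at 0 in both libraries of EP and of untreated NM, and had at most 4.4, 2.8 and 0.722 CPM in any library. Their replicates differed widely, and in AO at 24 hpt all 3 were at 0 in replicate 1 and at 2.43, 1.04 and 0.393 CPM in replicate 2.

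The responses at 24 hpt of the 3 contigs with most counts among the 7 were compared between the organs. TRINITY_DN113238_c1_g1 rose by a log2 fold change of 1.55 (SE 0.157) in AO and of 3.92 (SE 0.204) in NM at 24 hpt. TRINITY_DN118458_c4_g1 rose by 1.83 (SE 0.221) in AO and by 4.88 (SE 0.319) in NM on the log2 scale. The difference between the organs passed the test for these 2 contigs, at -2.37 and -3.05 as AO minus NM (adjusted p = 0.00031 and 0.00097 by edgeR's quasi-likelihood test). Set directly against each other, AO was above NM by 1.99 and 2.75 in untreated tissue. At 24 hpt the 2 contigs were at -0.38 and -0.3 and were not called. In the neuron list 15 of 26 tested contigs had a lower response in AO, with a median of -2.44. Over all genes 5.61% had a lower and 2.07% a higher response in AO. No EP-high contig passed, so 2 of 27 tested contigs were called, a share near that of all genes. Without replicate 2 of untreated NM the count was 1. For TRINITY_DN116840_c3_g1 the rises were 2.75 in AO and 4.28 in NM. Their difference of -1.53 (SE 0.43, unadjusted p = 0.029 and adjusted p = 0.096 by the same test) did not pass.

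By summed level the neuronal markers were also highest in NM at 24 hpt. Set directly against AO at 24 hpt, none of the 26 tested neuron contigs was called. Their median log2 difference was -0.34 as AO minus NM. The neuron list, 27 contigs matched by 12 of 14 symbols with none at 0 in both libraries of any group, summed to 147 and 129 CPM in untreated NM, 475 and 466 at 12 hpt and 1720 and 1640 at 24 hpt. In AO it summed to 385 and 351 CPM untreated, 915 and 884 at 12 hpt, and 1380 and 1310 at 24 hpt, and in EP to 228 and 210 CPM. *snap25* (TRINITY_DN99386_c3_g2), a membrane protein of synaptic vesicle release, had 4.34 and 5.23 CPM in untreated NM, 46.1 and 42.5 in NM at 12 hpt, 272 and 236 in NM at 24 hpt, 28.8 and 28.7 in untreated AO, 121 and 111 in AO at 12 hpt, 206 and 185 in AO at 24 hpt and 8.23 and 7.58 in EP. Of 26 tested neuron contigs, 23 rose and 1 fell in NM at 24 hpt against untreated, and 22 rose from 12 to 24 hpt. Over all genes 16.1% rose and 5.01% fell at 24 hpt. From 12 to 24 hpt 9.67% of genes rose in NM and 1.64% in AO. In AO from 12 to 24 hpt 5 neuron contigs rose, with a list median of 0.51. None of the 6 tested *ryr2* contigs of this class was called there by edgeR's quasi-likelihood test, with 3 positive and 3 negative values. The 1 with an unadjusted p under 0.05 by that test, TRINITY_DN113238_c1_g1, was lower at 24 hpt, at -0.32. The part of neurons in the level of the 7 contigs was not tested. As a description over 14 libraries, the log2 sum of the 7 contigs had a correlation of 0.97 with the neuron list and of 0.0951 with the skeletal muscle list. The EP-high sum had 0.372 with the neuron list and 0.906 with the muscle list. The EP libraries that chose the EP-high class are among the 14. By the same rule 78 of 81 muscle contigs and 0 of 27 neuron contigs were EP-high. The choice of the class therefore sets part of these correlations, and they test nothing.

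*tubb3*, a neuronal tubulin, had 2 of the 3 contigs with most counts in the neuron list. TRINITY_DN89564_c0_g1 had 290 and 304 CPM in NM at 24 hpt against 14 and 17 in untreated NM, and TRINITY_DN118883_c3_g2 had 218 and 187 against 30.9 and 14.4. Both rose in NM at 24 hpt, by log2 fold changes of 4.25 and 3.18.

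The organs were compared directly within each time. In untreated tissue 3 contigs were higher in AO than in NM, where 5.2% of genes were higher and 0.828% lower. They were the EP-high contig TRINITY_DN115766_c0_g2 at a log2 difference of 3.30 (SE 0.655) and the others TRINITY_DN113238_c1_g1 at 1.99 (SE 0.24) and TRINITY_DN118458_c4_g1 at 2.75 (SE 0.386). The count was 5 with the replicate block and 0 in a fit of these 2 groups alone. The EP-high contig, at 0 and 0.0997 CPM in untreated NM, was not called by DESeq2 or without any 1 of the 4 untreated AO and NM libraries. The median was 1.87 over the EP-high contigs, or 1.65 with the 3 contigs at 0 in untreated NM put at their bounds, and 20 of the 21 values were positive.

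At 12 hpt, 2 contigs were higher in AO than in NM, TRINITY_DN113238_c1_g1 at 1.49 and TRINITY_DN116840_c3_g1 at 1.75 on the log2 scale, where 2.95% of genes were higher and 0.764% lower. No EP-high contig was called by edgeR's quasi-likelihood test, and 3 of the 21 had an unadjusted p under 0.05. These 3 were lower in AO, at -0.54, -0.59 and -0.74. Of the 21 values 18 were negative, and their median was -0.17.

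At 24 hpt, 14 EP-high contigs were higher in AO, where 3.11% of genes were higher and 0.378% lower. Their log2 differences ran from 1.20 to 1.91, and the median of all 21 was 1.52. The count was 8 without replicate 2 of NM at 24 hpt and 1 in a fit of these 2 groups alone. Of the 7 other contigs none was called, and the 6 tested had negative values. At this time 60 of 77 skeletal muscle contigs were higher in AO too, with a median of 5.20.

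In the difference between the organs in the 12 hpt response, where 1.39% of genes were lower and 0.405% higher in AO, 1 contig passed. TRINITY_DN115766_c0_g2 rose by a log2 fold change of 2.45 in AO and of 6.33 in NM, a difference of -3.88 (SE 0.678, adjusted p = 0.0084 by edgeR's quasi-likelihood test). The untreated NM libraries of this contig held 0 and 0.0997 CPM, and it was not called when any of 11 of the 14 libraries was left out, that is all but replicate 1 of untreated AO and both of NM at 24 hpt. DESeq2 did not call it either. The change from 12 to 24 hpt was compared between the organs after the opposite courses had been seen. It was higher in AO for 11 EP-high contigs, where 4.17% of genes were higher, and lower in AO for TRINITY_DN113238_c1_g1, TRINITY_DN116840_c3_g1 and TRINITY_DN118458_c4_g1, where 4.88% were lower. In the muscle list 57 of 77 tested contigs were higher in AO and 0 lower, with a median of 5.52. In the neuron list 12 of 26 were lower and 0 higher, with a median of -1.23. The EP-high median was 1.79, and all 21 values were positive. The total of 14 became 9 without replicate 2 of AO at 24 hpt.

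Genes of the triad, the contact of surface membrane and sarcoplasmic reticulum, were also found on both sides of the EP rule. Of 35 contigs matched by 20 of 26 symbols of the triad and reticulum calcium list, 15 were EP-high, or 42.9%, where 5.63% of all genes were. The voltage-gated channel partners had 4 EP-high contigs of 21, the skeletal muscle list 78 of 81 and the cardiac list 20 of 23, and the inositol trisphosphate receptors, store-operated entry, hair cell and neuron lists had 0. Against untreated tissue, 19 and 21 triad contigs rose in AO at 12 and 24 hpt, and 22 and 14 rose in NM, where 1 fell at 24 hpt. Over all genes 9.84% and 12.6% rose in AO and 11.1% and 16.1% in NM, where 5.01% fell at 24 hpt. From 12 to 24 hpt in NM, 4 triad contigs rose and 13 fell, where 9.67% of genes rose and 5.59% fell.

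The junctophilins, which tie the reticulum to the surface membrane, were split between the sides of the rule. Their values were looked up after the split of the list had been seen. *jph1* (TRINITY_DN112432_c2_g2), the form known from skeletal muscle, had 3.24 and 3.22 CPM in untreated NM, 12.6 and 10.2 in NM at 12 hpt, 5.84 and 7.08 in NM at 24 hpt, 4.64 and 4.3 in untreated AO, 8.13 and 8.1 in AO at 12 hpt, 16.2 and 17.4 in AO at 24 hpt and 36 and 30.6 in EP. *jph2* (TRINITY_DN119828_c3_g1), the form of the heart and skeletal muscle, had 0.369 and 0.287 CPM in untreated NM, 2.71 and 2.89 in NM at 12 hpt, 0.975 and 1.03 in NM at 24 hpt, 0.601 and 0.459 in untreated AO, 2.17 and 2.37 in AO at 12 hpt, 5.16 and 5.23 in AO at 24 hpt and 11.1 and 13.6 in EP. Both were EP-high. *jph3* (TRINITY_DN118660_c1_g1), a form known from the brain, had 0.548 and 0.96 CPM in untreated NM, 5.37 and 7.19 in NM at 12 hpt, 26.2 and 28.7 in NM at 24 hpt, 1.93 and 2.58 in untreated AO, 12.2 and 14.2 in AO at 12 hpt, 19.8 and 18.4 in AO at 24 hpt and 1.49 and 1.76 in EP. *jph4* (TRINITY_DN103572_c0_g5), the other form of the brain, had 0.202 and 0 CPM in untreated NM, 2.24 and 1.25 in NM at 12 hpt, 8.61 and 7.52 in NM at 24 hpt, 0.291 and 0.45 in untreated AO, 6.46 and 3.99 in AO at 12 hpt, 6.47 and 4.17 in AO at 24 hpt and 0.781 and 0.176 in EP. By group mean these contigs were highest in NM at 24 hpt and low in EP, as was the remaining *jph3* contig TRINITY_DN103572_c0_g1 with 3.09 and 3.82 CPM in NM at 24 hpt. In NM from 12 to 24 hpt, the *jph3* and *jph4* contigs rose by log2 fold changes of 2.12 to 2.74 and *jph2* fell by 1.51. *jph1* was at -0.80 in that comparison and was not called.

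**Figure D5:**
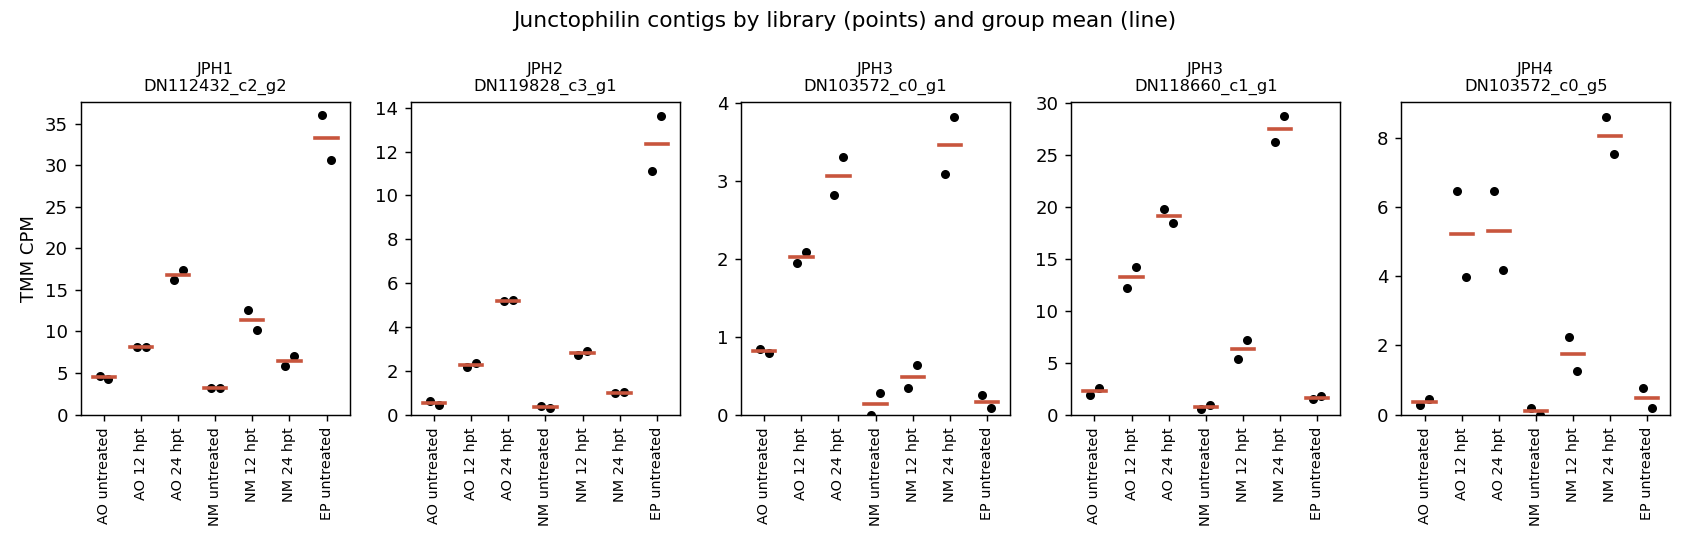
TMM CPM of the 5 junctophilin contigs by group, with a point per library and a line at the group mean. The JPH1 and JPH2 contigs are highest in EP, and the JPH3 and JPH4 contigs are highest in NM at 24 hpt.

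Some partners of RYR1 were looked up in the same way, chosen for being EP-high. Other triad genes were not, among them *fkbp1a*, *fkbp1b* and *selenon*, as 20 of the 35 triad contigs were not EP-high. *cacna1s* (TRINITY_DN119328_c2_g1), the voltage sensor Cav1.1, had 0 and 0.0767 CPM in untreated NM, 6.37 and 7.43 in NM at 12 hpt, 1.68 and 2.39 in NM at 24 hpt, 0 and 0.0749 in untreated AO, 1.83 and 3.14 in AO at 12 hpt, 11.1 and 10.9 in AO at 24 hpt and 23.3 and 28.2 in EP. *stac3* (TRINITY_DN118096_c3_g1), an adaptor of that sensor, had 0 and 0.155 CPM in untreated NM, 12.1 and 13.5 in NM at 12 hpt, 0.672 and 0.0842 in NM at 24 hpt, 0.743 and 1.06 in untreated AO, 7.23 and 4.81 in AO at 12 hpt, 17.6 and 19.8 in AO at 24 hpt and 36.7 and 39.9 in EP. In NM at 24 hpt *stac3* was back near untreated levels, and *cacna1s* lay below its 12 hpt libraries and above the untreated ones. Against untreated NM *cacna1s* was called higher at 24 hpt, by 4.79 on the log2 scale, after a called fall of 1.73 from 12 hpt. *stac3*, at 2.41, was not called against untreated. The EP-high contig TRINITY_DN112955_c2_g2, named *cacna1c* but with a protein described as alpha-1S, was called higher at 24 hpt by 2.57. The calcium-binding protein of the reticulum lumen *casq1* (TRINITY_DN111044_c5_g2) had 3.63 and 1.73 CPM in untreated NM, 121 and 112 in NM at 12 hpt, 3.24 and 3.69 in NM at 24 hpt, 3.34 and 3.05 in untreated AO, 56.5 and 58.3 in AO at 12 hpt, 198 and 182 in AO at 24 hpt and 503 and 533 in EP. It fell from 12 to 24 hpt in NM by 5.06 on the log2 scale, and did not pass against untreated at 24 hpt, at 0.41.

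The contigs of the triad list with the most counts were *fkbp1a* (TRINITY_DN109173_c0_g1), a channel-binding immunophilin with 374 to 809 CPM over all libraries, and 2 contigs of the reticulum calcium pump *atp2a1*. The pump contig TRINITY_DN118950_c2_g2 had 0.85 and 2.81 CPM in untreated NM, 564 and 569 in NM at 12 hpt, 13.3 and 24.6 in NM at 24 hpt, 9.51 and 12.8 in untreated AO, 343 and 352 in AO at 12 hpt, 915 and 840 in AO at 24 hpt and 2610 and 2710 in EP. It was lower in NM at 24 hpt than at 12 hpt by 4.89 on the log2 scale, and TRINITY_DN106288_c0_g1 by 2.09, and both were called. The *atp2a1* contigs did not all fall. In the same comparison TRINITY_DN98877_c2_g3 was called at -4.97, and TRINITY_DN94930_c0_g1 at 0.75 and TRINITY_DN99746_c0_g1 at 0.11 were not called. Against untreated NM, TRINITY_DN94930_c0_g1 rose by 2.28 at 24 hpt.

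Among the voltage-gated channel partners, 9 and 10 of 20 tested contigs rose in AO at 12 and 24 hpt and 7 and 16 in NM. Over all genes 9.84% and 12.6% rose in AO and 11.1% and 16.1% in NM. The partner contigs with the most counts were *cacna2d1* (TRINITY_DN117271_c2_g1), *cacna1d* (TRINITY_DN117567_c2_g1) and *cacng1* (TRINITY_DN100170_c0_g2). The auxiliary subunit *cacna2d1* had 37.2 and 37.2 CPM in EP. In NM it had 2.83 and 4.21 CPM untreated, 25.2 and 22.8 at 12 hpt and 30.2 and 26.5 at 24 hpt. The Cav1.3 channel of hair cells, *cacna1d*, had 2.7 and 2.61 CPM in EP and 13.6 and 12.5 in untreated AO. In NM it had 6.36 and 6.94 CPM untreated, 13.5 and 12.4 at 12 hpt and 20.2 and 17.8 at 24 hpt. A subunit of the muscle channel, *cacng1*, had 43.6 and 34.6 CPM in EP. In NM it had 0 and 0.122 CPM untreated, 13.2 and 12 at 12 hpt and 0.354 and 0.294 at 24 hpt.

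The other family of reticulum release channels, the inositol trisphosphate receptors, had 13 contigs, all tested and none EP-high. Over all genes 9.84% and 12.6% rose in AO at 12 and 24 hpt, and 11.1% and 16.1% in NM. Of the 13 contigs, 3 and 4 rose in AO at these times and 3 and 5 in NM. All that rose in NM at 24 hpt were named *itpr1*, and TRINITY_DN119715_c0_g1 had 1.73 and 2.42 CPM in untreated NM, 7.51 and 6.98 in NM at 12 hpt, 10.6 and 11.6 in NM at 24 hpt, 3.55 and 2.51 in untreated AO, 8.13 and 7.21 in AO at 12 hpt, 8.7 and 8.65 in AO at 24 hpt and 5.49 and 7.66 in EP. The list's contigs with the most counts were not among them, and *itpr3* (TRINITY_DN112208_c4_g1) kept between 12.2 and 21.1 CPM in all libraries. The contigs *itpr2* (TRINITY_DN109158_c0_g1), at 9.46 to 21.3 CPM, and *itpr3* (TRINITY_DN114734_c1_g1), at 10.4 to 18.7 CPM, had log2 values of -0.61 and -0.12 in NM at 24 hpt against untreated and were not called. Of 11 contigs of store-operated calcium entry, 1 rose in AO at 12 hpt and 1 at each time in NM. These counts did not exceed the shares of all genes, 9.84% in AO at 12 hpt and 11.1% and 16.1% in NM. The contigs of *orai1* (TRINITY_DN112710_c0_g1, TRINITY_DN105724_c3_g3) and *stim1* (TRINITY_DN119694_c3_g1), the pore and the calcium sensor of that pathway, stayed between 8.42 and 25.9 CPM.

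The cardiac muscle list, 23 contigs matched by 7 of 11 symbols, summed to 8590 and 8050 CPM in EP and 177 and 119 in NM at 24 hpt. Its contigs with the most counts, *myh7* (TRINITY_DN119169_c2_g1) and 2 of *actc1* (TRINITY_DN97849_c2_g2, TRINITY_DN92795_c2_g2), are also made by slow or developing skeletal muscle. *myh7* had 13.2 and 10.8 CPM in untreated NM, 1580 and 1600 in NM at 12 hpt, 48.3 and 47.3 in NM at 24 hpt, 49.1 and 35.8 in untreated AO, 1370 and 1300 in AO at 12 hpt, 2100 and 2050 in AO at 24 hpt and 4490 and 4360 in EP. It followed the skeletal muscle markers, with 15 of 22 tested cardiac contigs called lower in NM from 12 to 24 hpt and 2 higher. Over all genes 5.59% were lower and 9.67% higher in that comparison. The *actc1* contig TRINITY_DN92795_c2_g2 was called in no comparison. Its replicates lay far apart, with 106 and 8.78 CPM in untreated NM and 73 and 11.4 in NM at 24 hpt. Of 32 tested hair cell contigs, 9 rose and 1 fell in NM at 24 hpt against untreated and 3 rose and 9 fell in AO. Over all genes 16.1% rose and 5.01% fell in NM, and 12.6% rose and 3.47% fell in AO. The hair cell contigs with the most counts were *otof* (TRINITY_DN119677_c4_g1), the calcium sensor of hair cell synapses, with 137 and 113 CPM in untreated AO and 6.29 and 3.78 in EP, and 2 of *myo6* (TRINITY_DN116907_c4_g1, TRINITY_DN107845_c23_g2), a myosin also made outside hair cells, with 24.5 to 101 CPM over all libraries.

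The genes whose pattern was most like each class were found over the 14 libraries by the correlation of log2(CPM + 1) with the summed level of the class. The 14 include the EP libraries that chose the classes, so these correlations are a description and not a test. For the EP-high contigs they were *tmpo* (r = 0.992), a nuclear lamina protein, the ubiquitin hydrolase *usp13* (r = 0.987), the GMP reductase *gmpr* (r = 0.985), *shha* (r = 0.984), a hedgehog ligand, and *myo18b* (r = 0.984), a myosin of the sarcomere. For the 7 other contigs they were the RNA-binding protein *tnrc4-a*, the vesicular glutamate transporter *slc17a6*, the synaptic vesicle protein *syp*, the granule protein *scg3* and *atcay*, all at r = 0.995. The mean level of *myo18b* was 3.13 CPM in NM at 12 hpt, 2.4 at 24 hpt and 7.43 in EP, whereas *syp* had 60.6, 303 and 7.3 CPM. With a pseudocount of 0.5 or 2 in place of 1, 4 and 3 of the 5 genes were the same for the EP-high contigs and 3 and 5 for the others.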

How the data were processed

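RNA was measured in 14 libraries of 7 groups with 2 replicates each. The authors trimmed the reads with Trimmomatic 0.38, assembled a transcriptome with Trinity, and deposited expected counts per Trinity gene from RSEM, with names from Swiss-Prot and sterlet orthologs. Base calling used CASAVA 1.8.2 according to the submitters' processing notes. RSEM divides reads shared by similar contigs, which can move counts between ryanodine receptor contigs.

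Here the expected counts were rounded and scaled by TMM, genes were filtered by filterByExpr, and 21978 of 23448 genes were fitted together in all 14 libraries with edgeR 4.0.16 (limma 3.58.1, R 4.3.3), with 1 mean per group and the quasi-likelihood test. Calls needed a log2 fold change above 1 in size and a Benjamini-Hochberg adjusted p under 0.01 over all genes tested. In simulated data for AO at 12 hpt against untreated, over 21326 genes, 157 of 200 changed genes were recovered with 1 false call. For AO against NM untreated 176 of 200 were recovered with 3 false calls, and for the organ difference at 12 hpt 143 with 1. The simulation kept all other genes at 1 mean over the groups and used the spread fitted here. It therefore cannot give the share of false calls in the real data. No contig lengths and no genome were used. The members, classes and marker lists were chosen with earlier results of these data known. Values in every library are given for members called in at least 1 comparison, for the 2 members with most counts in each class and for those beside the limit of the EP rule. Of each list the 3 contigs with most counts are named, and of each class the 5 genes of most similar pattern. The triad contigs named beyond these were chosen after their values were seen.

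Same-numbered libraries deviated together from their group means in 21 of 21 pairs of groups (correlations from 0.197, median 0.271). The labels do not say what same-numbered libraries share. The main fit left the replicate number out, and a fit with it as a block was run as an alternative. Other alternatives were DESeq2 1.42.0 and its size factors, TMM without muscle and member genes, 2 other filters, edgeR's exact test, fits of only the groups compared, an adjusted p under 0.05, and leaving out each library. Between replicates of a group the members' counts had a chi-square per degree of freedom of 1.04 to 3.86, and all genes 6.92 to 9.65. No library was therefore treated as a copy of the counts of another. These values do not make the 2 libraries of a group independent, since both were parts of the same pool.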

Additional observations from a re-analysis of the deposited data

Results flagged for a closer look

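The response at 12 hpt differed between the organs for the *ryr3* contig TRINITY_DN115766_c0_g2, by -3.88 on the log2 scale as AO minus NM. Over all genes 1.39% were lower in AO in this comparison. The contig held 0 and 0.0997 CPM in untreated NM. Its call was lost by DESeq2 and without most of the single libraries. The response at 24 hpt differed for the *ryr2* contigs TRINITY_DN113238_c1_g1, by -2.37, and TRINITY_DN118458_c4_g1, by -3.05, where 5.61% of genes were lower in AO. These were 2 of 27 tested contigs, a share near that of all genes, and none was EP-high. The change from 12 to 24 hpt differed between AO and NM for 14 contigs, 11 of them EP-high with a larger change in AO and 3 not EP-high with a larger change in NM. Over all genes 4.17% were higher and 4.88% lower in AO in that comparison. It was added after the opposite courses had been seen, so its calls are a description of a known pattern. Each of the differences in this section passed edgeR's quasi-likelihood test of the difference itself.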

How the results depend on the processing

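The EP class of all 28 contigs was the same under every rule tried, and no call of a contig turned its sign under any alternative. When only the groups compared were fitted, the counts went to 0 for AO from 12 to 24 hpt, for AO against NM untreated and at 12 hpt, and for the organ difference at 12 hpt, to 1 for AO against NM at 24 hpt and to 3 for NM from 12 to 24 hpt. Fewer libraries then set the spread. For AO against NM untreated the count was 9 by the exact test, 13 at an adjusted p under 0.05 and 5 with the replicate block, and the block lost none of 145 calls. The organ difference at 12 hpt had 0 calls by DESeq2 and 5 at an adjusted p under 0.05. The exact test has no form for the organ differences and was not run for them. Leaving out 1 library gave 17 to 23 calls for AO at 12 hpt, 23 to 24 for AO at 24 hpt, 2 to 8 between these times, 21 to 24 for NM at 12 hpt, 20 to 25 for NM at 24 hpt and 3 to 6 between these times. It gave 2 to 4 for AO against NM untreated, 2 at 12 hpt, 8 to 14 at 24 hpt, 0 to 1 and 1 to 2 for the organ differences at 12 and 24 hpt, and 9 to 15 for that in the change between them. Libraries of 1 group then rest on the spread of the other groups. Contigs under about 1 CPM rest on few counts.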
